A study of Mus musculus with 8 samples.

Results

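The insulin-like growth factor (IGF) system was described in single cells of the adult mouse liver through 10 genes out of the 46517 in the count table: the ligands *Igf1* and *Igf2*, the receptor *Igf1r* and the binding proteins *Igfbp1* to *Igfbp7*. The genes were taken by name from the table of all cells and followed across 4 cell classes, 24 annotation names and the clusters within each class, as deposited with the counts. The cells came from livers of C57BL6/J male and female mice aged 8 weeks to 1 year, all untreated adults, and many carried fluorescent reporters (*Pdgfrb*-GFP, *Pdgfra*-H2bGFP, *Cspg4*-dsRED, *Acta2*-GFP or *Cldn5*-GFP) in heterozygous form or combined. Cholangiocytes and Kupffer cells were sorted with antibodies, endothelial cells with antibodies or by the *Cldn5*-GFP reporter, and mesenchymal cells by a reporter or an antibody to PDGFRα, whereas hepatocytes were living cells taken without selection, so the numbers of cells reflect the sort. Each cell was sequenced as its own Smart-seq2 library, with a median of 228708 counts per cell (47063 to 1128421) over 3491 cells. The labels give the sex and the plate of a cell but not the mouse, and the cells of a sex in a class were taken as 1 replicate, called a pool, which gives 2 pools per class. With pools as replicates, the p values below measure the spread between the pools of a class or cluster, and not the spread among the clusters of a side. Of the 22 plates, 0 held both sexes, so sex and plate cannot be told apart.

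IGF1 and IGF2 are small secreted hormones related to insulin. They signal through the receptor tyrosine kinase IGF1R, and the liver is the main source of circulating IGF1, which it makes under the control of growth hormone. In blood and tissue the ligands are carried by binding proteins that prolong their life and limit their access to the receptor, and the classical circulating complex joins IGF1, IGFBP3 and the acid-labile subunit encoded by *Igfals*. IGFBP7 is a related protein of the extracellular matrix that binds IGFs weakly. In the mouse genome (GENCODE vM21, build GRCm38) *Igf1* lies at chr10:87858265-87937042 on the plus strand, *Igf2* at chr7:142650766-142666816 on the minus strand and *Igf1r* at chr7:67952827-68233668 on the plus strand. *Igfbp2* and *Igfbp5* are neighbours in opposite orientation on chromosome 1, at chr1:72824503-72852474 (plus) and chr1:72857932-72874884 (minus). *Igfbp4* lies at chr11:99041244-99054392 (plus), *Igfbp6* at chr15:102144362-102149511 (plus) and *Igfbp7* at chr5:77349240-77408041 (minus), and the positions of *Igfbp1* and *Igfbp3* are given with their sequences.

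Levels are given in counts per 1000000 counts (CPM) summed over all cells of a name or cluster, male pool first. For the comparisons, counts were summed per class or cluster and pool, and sums of at least 5 cells were fitted with edgeR's quasi-likelihood test. A gene was called where its Benjamini-Hochberg adjusted p over all genes tested was under 0.05 and its log2 fold change reached 1 in either direction. A fitted log2 fold change compares mean log levels of the sums on each side, so it can differ from a ratio of mean CPM. Because the clusters and names were derived by the authors from these very transcriptomes, any of the 10 genes may have helped to set them apart, and the tests between clusters are not independent of that step. The class labels matched their markers: summed over each class's own markers the level was 8169 CPM in mesenchymal, 9213 CPM in endothelial and 8354 CPM in immune cells, while hepatocyte markers reached 9453 CPM and cholangiocyte markers 4810 CPM in parenchymal cells. Hepatocyte markers also amounted to 416 CPM in mesenchymal, 329 CPM in endothelial and 516 CPM in immune cells. In the female parenchymal pool 37 of 39 cells were cholangiocytes, so hepatocyte levels rest on the male pool. Each hepatocyte cluster thus had a single sum. In the comparison of cholangiocytes with hepatocytes the spread came only from the male and the female cholangiocyte sum, without a replicate of hepatocytes.

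Of the binding proteins, *Igfbp3*, *Igfbp5* and *Igfbp6* were highest in the mesenchymal class. *Igfbp3*, the main carrier of IGF1 in blood, was at 2134 and 1461 CPM in the mesenchymal pools, against 25.9 and 54.2 CPM in endothelial, 8.82 and 8.16 CPM in immune and 13.2 and 3.28 CPM in parenchymal cells. The mesenchymal pools were above the other 6 pools, with a log2 fold change of 7.03 ± 0.55 (standard error; edgeR adjusted p = 0.000337). *Igfbp6*, a binding protein with a preference for IGF2, was at 294 and 246 CPM in mesenchymal cells and at most 15.1 CPM in any other pool (7.04 ± 1.16, edgeR adjusted p = 0.00654). *Igfbp5*, which binds to the extracellular matrix, was at 205 and 366 CPM in mesenchymal cells and at 13.1 and 54.8 CPM in endothelial cells, its next highest class (5.88 ± 0.64, edgeR adjusted p = 0.00114). *Igf2* was at 60.9 and 7.68 CPM in mesenchymal cells and at most 3.59 CPM elsewhere (6.98 ± 1.0, edgeR adjusted p = 0.00344), but the mesenchymal pools themselves lay far apart. *Igfbp4* and *Igfbp7* were also called. In total 6 of the 10 genes were called, each of them higher in the mesenchymal class, where 11.8% of all genes tested were called in either direction, and the median log2 fold change was 2.83 over the 10 genes and 0.02 over all genes.

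*Igfbp4* and *Igfbp7* were shared by mesenchymal and endothelial cells. *Igfbp4*, an inhibitory binding protein that the protease PAPP-A cleaves, was at 3022 and 2743 CPM in mesenchymal, 1722 and 1697 CPM in endothelial, 418 and 152 CPM in parenchymal and 119 and 120 CPM in immune cells. *Igfbp7* was at 2823 and 1396 CPM in mesenchymal, 2361 and 1280 CPM in endothelial, 390 and 222 CPM in parenchymal and 102 and 31.3 CPM in immune cells. For both genes each mesenchymal and endothelial pool was above each immune and parenchymal pool. Against the mean of the other classes, *Igfbp4* had log2 fold changes of 2.93 ± 0.38 in mesenchymal (edgeR adjusted p = 0.00211) and 1.79 ± 0.38 in endothelial cells (edgeR adjusted p = 0.0269). *Igfbp7* had log2 fold changes of 2.73 ± 0.50 in mesenchymal (edgeR adjusted p = 0.00992) and 2.27 ± 0.50 in endothelial cells (edgeR adjusted p = 0.0306), and the endothelial call was lost when cells named Mesothelial, Cont and PBV were left out (2.47, edgeR adjusted p = 0.0578), a choice made after seeing the data. Endothelial cells had 3 genes called in either direction, the other being *Igf1*, against 8.28% of all genes. Exons of *Igfbp7* overlap those of *Polr2b* on the opposite strand, and the library type does not keep the strand, so reads of the shared stretch cannot be assigned. Over all cells *Igfbp7* had 1373881 counts and *Polr2b* 143027.

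**Figure D1:**
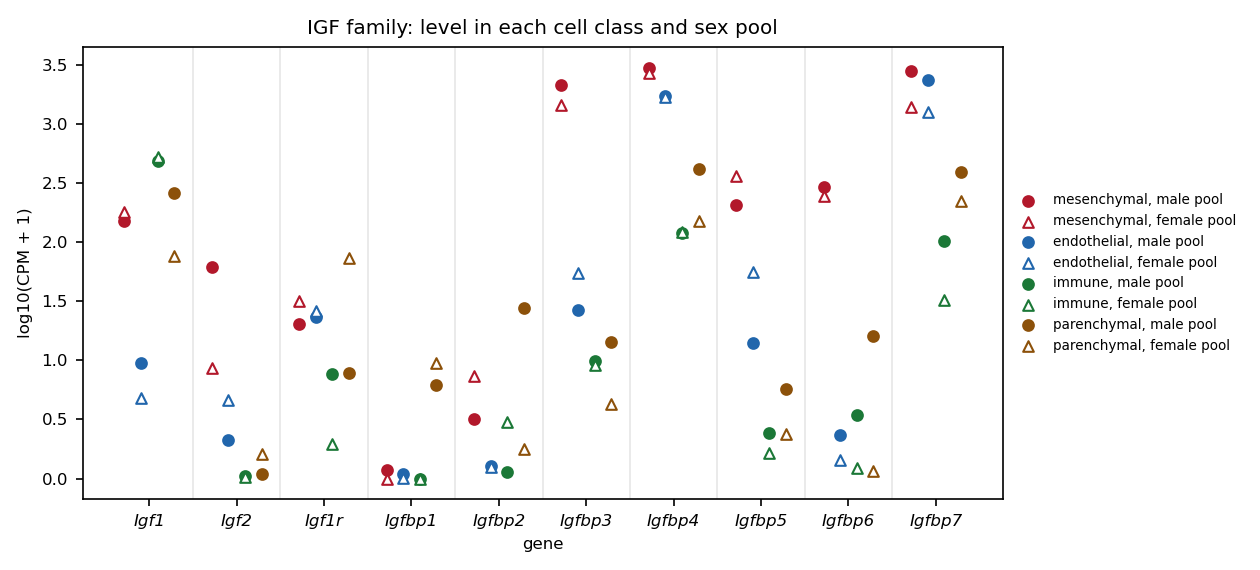
CPM of the 10 genes on a log10(CPM + 1) axis in the 8 pools, with filled circles for male and open triangles for female pools and a colour for each cell class. Mesenchymal pools stand highest for *Igfbp3* (2134 and 1461 CPM), and immune pools for *Igf1* (488 and 531 CPM).

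*Igf1* was highest in immune and lowest in endothelial cells. Immune pools were at 488 and 531 CPM, mesenchymal pools at 149 and 179 CPM, parenchymal pools at 262 and 75 CPM, and endothelial pools at 8.43 and 3.84 CPM. Both immune pools lay above, and both endothelial pools below, all others. The log2 fold change was 3.30 ± 0.47 for immune cells (edgeR adjusted p = 0.00349) and -5.40 ± 0.74 for endothelial cells (edgeR adjusted p = 0.00493). The immune class was called lower for *Igf2*, *Igfbp3*, *Igfbp4*, *Igfbp5* and *Igfbp7*, so that 6 of 10 genes were called in either direction, against 13.2% of all genes. The call of *Igf2* there (log2 fold change -6.06) did not hold with the pool as a block (-6.05, edgeR adjusted p = 0.0521). That of *Igfbp5* did not hold without the cells named Mesothelial, Cont and PBV (-5.26, edgeR adjusted p = 0.0748). The parenchymal class had 2 genes called, *Igfbp1* higher (8.47 ± 1.54, edgeR adjusted p = 0.0134) and *Igfbp3* lower (-3.36 ± 0.69, edgeR adjusted p = 0.0166; with sums per plate -3.11, edgeR adjusted p = 0.0660, not called), against 12.4% of all genes, and with the pool as a block *Igfbp4* was called lower too (-1.71, edgeR adjusted p = 0.0445).

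Among the annotation names, *Igf1* was highest in 3 names of the immune class. It stood at 823 CPM in the 18 cells named sKC, 615 CPM in 469 Kupffer cells, the resident macrophages of the sinusoid, and 551 CPM in 24 cells named Cyc. The next names were Wt1_FB, the *Wt1*+ fibroblasts that the study assigns to the capsule region, at 447 CPM, and hepatocytes at 403 CPM. Kupffer cells were at 900 and 550 CPM in the 2 pools and ranged from 411 to 1340 CPM over 6 plates. Hepatocytes ranged from 385 to 442 CPM over 4 plates of the male pool. Plate ranges overlapped for all 21 neighbouring pairs in the order of *Igf1* levels that could be compared, so neighbours in this order cannot be ranked.

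The level of a name also reflected how many of its cells carried the transcript. At least 1 *Igf1* count was found in 96.4% of Kupffer cells, 84.1% of *Wt1*+ fibroblasts and 79.8% of hepatocytes, and the median cell had 458, 220 and 251 CPM. In portal fibroblasts the mean was 204 CPM, but the median cell had 8.5 CPM and 62.2% of cells carried a count. Cells of the central vein endothelium, where the level was 1.4 CPM, carried a count in 15.9%. When each cell was thinned to 50000 counts these shares were 92.5% in Kupffer cells, 50.2% in portal fibroblasts and 5.98% in central vein endothelium. Smart-seq2 counts here carry no molecular identifiers, so shares and intervals cover counting error only.

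Within the immune class, Kupffer cell clusters (#i1, #i3, #i4, #i6 and #i7) were compared with the clusters of B cells and monocytes (#i2 and #i5). In #i4 the cells are named Cont (24) and Cyc (24), and #i2 holds 9 cells named sKC besides 56 monocytes. *Igf1* ranged from 529 to 908 CPM over the 3 male sums and from 342 to 1114 CPM over the 5 female sums of Kupffer cells, against 7.63 and 299 CPM in the 2 male sums of the other cells. All Kupffer sums were above both. *Igf1* was the only one of 8 genes tested that was called (3.68 ± 0.66, edgeR adjusted p = 6.5e-06), against 2.35% of all genes. Monocytes as named were at 142 CPM, with the median cell at 4.43 CPM and 84.1% of the counts in the highest 10% of cells, and B cells at 7.6 CPM.

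Cholangiocytes, the epithelium of the bile ducts, were at 171 and 76.6 CPM for *Igf1*, below the 280 to 477 CPM of the 4 male hepatocyte clusters (-2.43 ± 0.67, edgeR adjusted p = 0.00642). The median cholangiocyte had 7.9 CPM. Hepatocyte markers amounted to 5115 CPM in cholangiocytes and 16978 CPM in hepatocytes, and their part in the cholangiocyte level of *Igf1* was not tested. Of the partners of circulating IGF1, *Igfals* was at 112 CPM on average over the hepatocyte clusters and at 16.7 and 29.6 CPM in cholangiocytes (-2.49 ± 0.72, edgeR adjusted p = 0.00877). The growth hormone receptor gene *Ghr* was at 635 CPM in hepatocytes and at 13.4 and 0.160 CPM in cholangiocytes (-7.15 ± 1.15, edgeR adjusted p = 3.81e-05).

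In mesenchymal cells, *Igf1* was on average higher in fibroblasts than in the other clusters. Fibroblast clusters (#m1, #m4, #m8, #m9 and #m10) averaged 211 CPM (69.3 to 429) among male and 412 CPM (295 to 528) among female sums, against 80.3 CPM (2.95 to 231) and 61.2 CPM (6.37 to 198) in the other clusters. The ranges overlapped in the male pool and not in the female pool, and the log2 fold change was 2.81 ± 0.31 (edgeR adjusted p = 2.26e-05). The female pool had no sums for #m8 and #m10, and #m8 was the lowest fibroblast cluster (69.3 CPM). By name, *Wt1*+ fibroblasts (448 and 445 CPM) and peribiliary fibroblasts (168 and 528 CPM) were above hepatic stellate cells (HSC, 38 CPM) and smooth muscle cells named artSMC (5.0 CPM). SLC belong to mural cluster #m5 here. The study assumes them to be cells of the central and perhaps also the portal vein wall, and scored them closer to fibroblasts than to mural cells. SLC were at 264 CPM in the male pool, within its fibroblast range, and at 259 CPM in the female pool, below its fibroblast range.

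**Figure D2:**
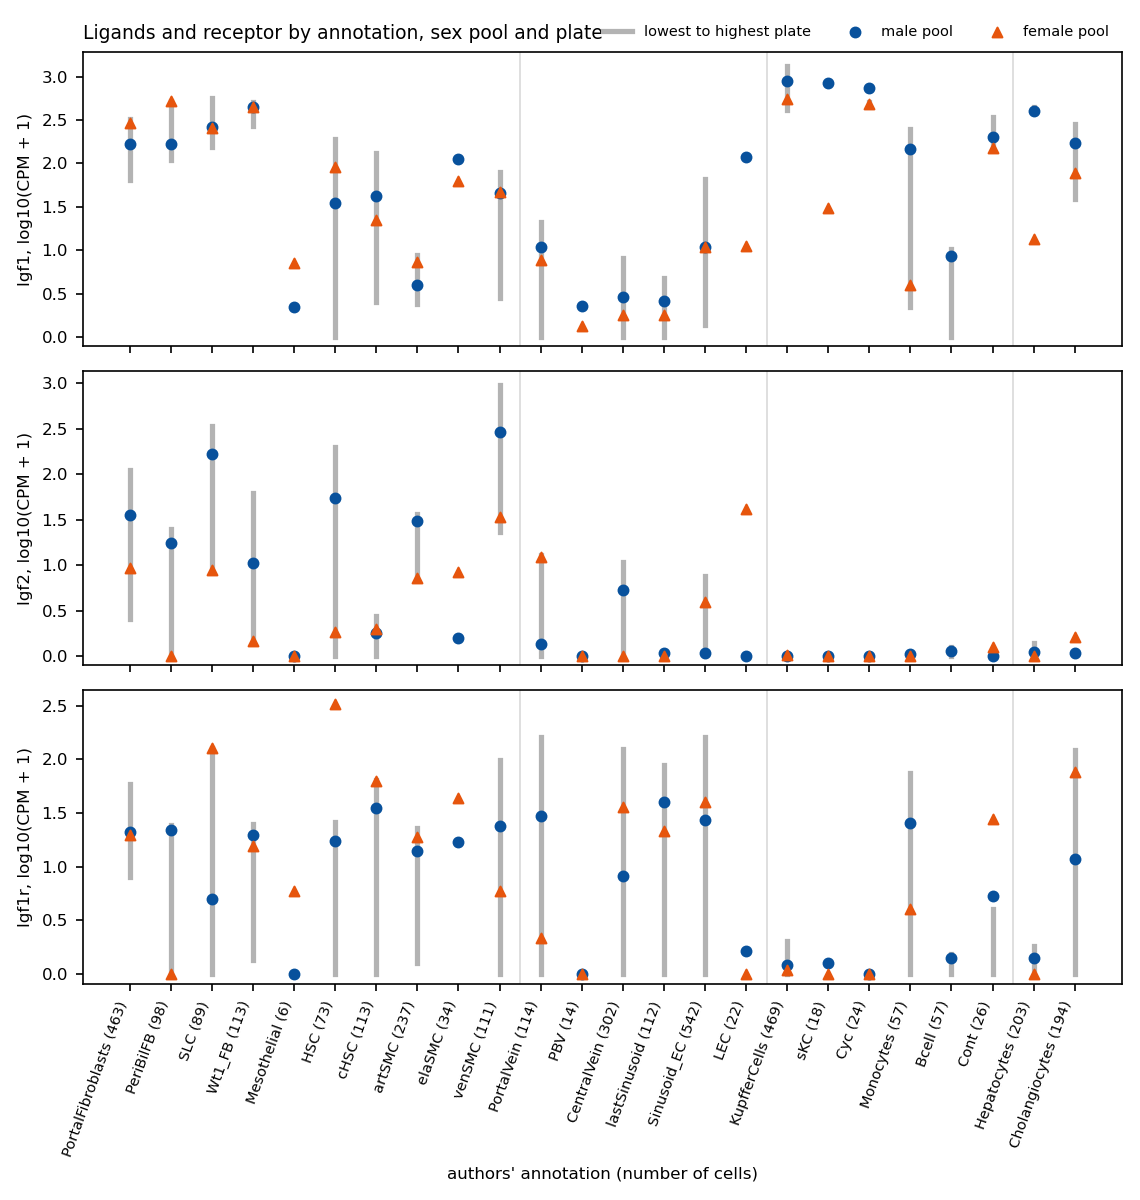
CPM of *Igf1*, *Igf2* and *Igf1r* by annotation name, with circles for male and triangles for female pools and a grey bar from the lowest to the highest plate with at least 5 cells of that name. *Igf1* is highest in sKC (823 CPM) and KupfferCells (615 CPM), and *Igf2* in venSMC, where plates ran from 22.4 to 965 CPM.

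*Igf2* was carried by a minority of cells in every name and was highest in venSMC and SLC. The highest names were venSMC, smooth muscle cells of veins, at 221 CPM over both pools, SLC at 113 CPM, HSC at 50.3 CPM, lymphatic endothelial cells (LEC) at 28.0 CPM and portal fibroblasts at 26.8 CPM. A count was found in 19.7% of portal fibroblasts, 16.4% of HSC, 14.3% of peribiliary fibroblasts and 13.6% of LEC, against 1.97% of hepatocytes and 0.640% of Kupffer cells. In venSMC 47.7% of cells and in SLC 39.3% of cells carried a count, yet the median cell was at 0 and the highest venSMC cell at 3702 CPM. The male pool was above the female pool in venSMC (291 and 32.7 CPM), SLC (165 and 7.81 CPM) and HSC (54.4 and 0.839 CPM, with 4 female cells). The venSMC plates ranged from 22.4 to 965 CPM, and no comparison within the mesenchymal class called *Igf2* in the sums per cluster and pool. With sums per plate, cHSC were called lower than HSC (-6.72, edgeR adjusted p = 0.0462). A stretch of *Igf2* exons overlaps the antisense gene *Igf2os*, which had 73 counts against 14789 for *Igf2*.

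The receptor gene *Igf1r* was low, and in most names few cells carried it. The level over all cells was highest in SLC (44.4 CPM), capsular stellate cells (cHSC, 40.8 CPM), HSC (40.6 CPM) and the smooth muscle name elaSMC (37.3 CPM), followed by sinusoidal endothelium (28.3 CPM). In SLC and HSC the highest 10% of cells held 99.3% and 99.5% of the counts, and the median plates were at 2.04 and 2.27 CPM. Of all names elaSMC had the largest share of cells with a count (52.9%), against 16.9% of SLC, 17.7% of cHSC and 15.1% of HSC. Plate ranges overlapped for 19 of 21 neighbouring pairs in this order, so most neighbours cannot be ranked. Hepatocytes were at 0.39 CPM and Kupffer cells at 0.11 CPM, whereas *Wt1*+ fibroblasts, which also had high *Igf1*, were at 17.1 CPM. A count of *Igf1r* was found in 17.5% of sinusoidal endothelial cells (95% exact binomial interval 14.4 to 21), 4.93% of hepatocytes (2.39 to 8.87) and 2.99% of Kupffer cells (1.64 to 4.96). Between cell classes *Igf1r* was called in none of the 4 comparisons by edgeR, where its unadjusted p was lowest in immune cells (0.0357), but it was called lower in immune cells by edgeR without the filter on low counts (-2.87, edgeR adjusted p = 0.0118) and by DESeq2 (-2.83, adjusted p = 0.0155). The pools of a class differed widely, as in parenchymal cells with 6.75 and 73.3 CPM.

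In the parenchymal class *Igf1r* was higher in cholangiocytes, where a count was found in 10.3% of cells (95% exact binomial interval 6.41 to 15.47). *Igf1r* was at 10.8 and 75.1 CPM in male and female cholangiocytes and at 0.303 to 0.524 CPM in the 4 hepatocyte clusters, and both cholangiocyte sums were above all hepatocyte sums (5.84 ± 1.13, edgeR adjusted p = 0.000274). The call did not hold with sums per plate (5.33, edgeR adjusted p = 0.135). Other receptors had the same direction: *Igf2r*, which clears IGF2, was at 16.1 and 40.1 CPM against 0.422 CPM (5.29 ± 1.15, edgeR adjusted p = 0.000909), and the insulin receptor *Insr* at 68.9 and 89.9 CPM against 10.9 CPM (3.70 ± 0.79, edgeR adjusted p = 0.000775). *Grb10*, an adaptor that restrains the insulin and IGF1 receptors, was at 48.0 and 93.6 CPM against 0.242 CPM (8.44 ± 1.19, edgeR adjusted p = 7.81e-06). The median log2 fold change over all genes in this comparison was 1.38, and 28.6% of all genes were called higher and 8.67% lower.

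**Figure D3:**
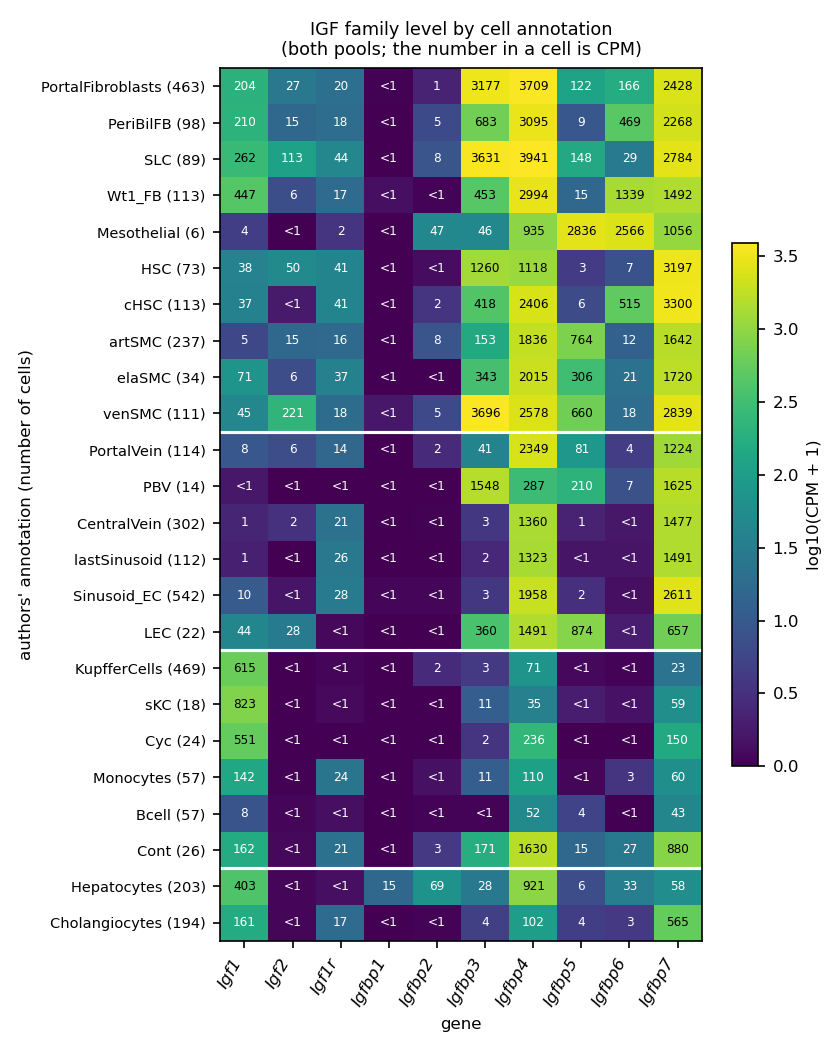
CPM of the 10 genes (columns) over both pools in the 24 annotation names (rows, numbers of cells in brackets), coloured on a log10(CPM + 1) scale with the CPM printed in each field. *Igfbp4* and *Igfbp7* fill the mesenchymal and endothelial rows, and the other genes mark fewer names, such as *Igfbp6* in Wt1_FB (1339 CPM).

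*Igfbp1* and *Igfbp3* are neighbours on mouse chromosome 11 (build GRCm38), in opposite orientation with 3539 bases between their ends: *Igfbp1* at chr11:7197782-7202546 on the plus strand and *Igfbp3* at chr11:7206086-7213923 on the minus strand. In the parenchymal class *Igfbp1* was called higher and *Igfbp3* lower, and the 250 bases before each start are shown because these windows differ in composition. They were read from the RefSeq promoter table of GRCm38.p6, at chr11:7197537-7197786 (plus strand) and chr11:7213924-7214173 (minus strand). Capitals mark CAAAACAA, the core of the insulin response sequence, searched on both strands.
Igfbp1: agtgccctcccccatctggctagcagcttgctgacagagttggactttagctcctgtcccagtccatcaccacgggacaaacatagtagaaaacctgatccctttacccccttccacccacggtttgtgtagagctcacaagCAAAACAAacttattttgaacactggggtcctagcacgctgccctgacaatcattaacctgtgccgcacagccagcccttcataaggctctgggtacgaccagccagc
Igfbp3: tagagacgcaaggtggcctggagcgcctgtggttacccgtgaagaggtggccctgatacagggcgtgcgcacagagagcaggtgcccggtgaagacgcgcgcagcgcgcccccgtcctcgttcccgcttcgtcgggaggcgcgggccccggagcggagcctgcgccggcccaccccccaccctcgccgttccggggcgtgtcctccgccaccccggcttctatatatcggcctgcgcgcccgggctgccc
The *Igfbp1* window holds the motif once, 108 bases before the start, and none of the other windows of the 10 genes in the table holds it. Of all 32851 windows of this length, 2.21% do. The *Igfbp1* window is 53.2% G and C with 5 CpG dinucleotides and the *Igfbp3* window 73.2% with 32, against medians of 52.4% and 6 over all windows. A match describes the letters of the window and not a site in use.

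*Igfbp1*, which hepatocytes are known to make under insulin control, was nearly absent. Only 16 of 3491 cells had a count, 594 counts in all, and 536 of these came from 5 hepatocytes on 3 plates. A single cell held 360 counts. By cluster, male hepatocytes of #p4 were at 36.5 CPM and those of #p1 at 0.108 CPM, so the call for the parenchymal class rests on few cells. With sums per plate the gene was too low to be tested.

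*Igfbp2* was highest in hepatocytes. It was at 69.2 CPM over all hepatocytes, with 166 CPM in male #p3, 82.3 CPM in #p1, 59.9 CPM in #p4 and 32.1 CPM in #p5, against 0 and 0.801 CPM in cholangiocytes. A count was found in 30.5% of hepatocytes, the median hepatocyte had none, and the highest 10% of cells held 79.5% of the counts. Each hepatocyte sum was above both cholangiocyte sums (-9.21 ± 1.42 in cholangiocytes, edgeR adjusted p = 2.34e-05). Plates differed nevertheless, from 3.12 to 158 CPM in #p1. The 6 cells named Mesothelial were next at 46.7 CPM, with a count in 33.3% of them, while all mesenchymal cluster sums were at or below 12.8 CPM. Portal vein cluster #e2 reached 1.61 and 1.42 CPM against means of 0.0956 and 0.0174 CPM in other endothelial clusters (5.51 ± 1.20, edgeR adjusted p = 0.0338), a call that rests on 3 of 128 cells with a count.

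*Igfbp3* was not even among mesenchymal names. The highest were venSMC (3696 CPM, plates from 2987 to 5375), SLC (3631 CPM) and portal fibroblasts (3177 CPM), and HSC (1260 CPM), peribiliary fibroblasts (683 CPM), *Wt1*+ fibroblasts (453 CPM), cHSC (418 CPM), elaSMC (343 CPM) and artSMC (153 CPM) were lower. Levels thus lay apart among fibroblasts, among smooth muscle cells and among stellate cells, and the fitted difference between fibroblasts and other mesenchymal clusters was under the fold threshold (0.96 ± 0.24, edgeR adjusted p = 0.0403). With sums per plate it was called (1.35, edgeR adjusted p = 0.000324), and so was a lower level in mural cells (-1.06, edgeR adjusted p = 0.0174). Fibroblast sums ranged from 223 to 3686 CPM and other mesenchymal sums from 54.8 to 4414 CPM. Peribiliary fibroblasts were at 685 and 673 CPM, against means of 2699.8 and 1443 CPM in other fibroblasts, whose lowest sums were at 559 and 223 CPM, and this difference was not called (-1.67 ± 0.46, edgeR adjusted p = 0.368).

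In the endothelium, *Igfbp3* came from few and particular cells. The 14 cells named PBV, endothelium of the peribiliary vessels, were at 1539 and 1553 CPM, LEC at 845 and 143 CPM, and portal vein endothelium at 13.4 and 65.6 CPM. Sinusoidal endothelium was at 2.8 CPM. Mesenchymal markers amounted to 9.66 CPM and stellate markers to 0 CPM in PBV cells, whereas in LEC they amounted to 315 and 1066 CPM, with the stellate marker *Lrat* at 0. The part of these markers in the LEC levels was not tested. Cluster #e2, which joins portal vein endothelium with the PBV cells, was higher than other endothelium (159 and 285 CPM, 5.78 ± 0.79, edgeR adjusted p = 0.000986). Without the cells named PBV, Mesothelial and Cont the log2 fold change was 3.26 and no longer called (edgeR adjusted p = 0.0901), a setting added after seeing the data.

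*Igfbp5* was highest in lymphatic endothelium and smooth muscle. Among names with at least 10 cells it was highest in LEC (874 CPM), artSMC (764 CPM), venSMC (660 CPM) and elaSMC (306 CPM), with 122 CPM in portal fibroblasts and 3.2 CPM in HSC. In LEC the highest 10% of the 22 cells held 79.5% of the counts and the median cell was at 59.8 CPM, against 428 CPM in artSMC. Mural clusters (#m2, #m5, #m6 and #m7) averaged 593 CPM (97.1 to 914) among male and 528 CPM (219 to 827) among female sums, against 84.3 CPM (2.06 to 162) and 81.9 CPM (8.36 to 162) in the other mesenchymal clusters. The ranges overlapped in the male pool and not in the female pool, and the log2 fold change was 3.12 ± 0.38 (edgeR adjusted p = 5.96e-05). Here too the female pool had no sums for #m8 and #m10. The stellate cell cluster #m3 was at 2.06 and 16.8 CPM against means of 320 and 346 CPM (-4.34 ± 0.75, edgeR adjusted p = 0.00622). Peribiliary fibroblasts were at 8.62 and 8.36 CPM, below all other fibroblast sums (80.8 to 162 CPM), but edgeR did not call them in the filtered fit (-4.05 ± 0.75, adjusted p = 0.0657). They were called by DESeq2 (-3.94, adjusted p = 3.46e-05), by edgeR without the filter on low counts (-4.07, adjusted p = 2.2e-08) and by edgeR on thinned cells (-3.42, adjusted p = 0.0435). By name, however, *Wt1*+ fibroblasts were also low, at 14.7 CPM. Their plates (3.90 to 55.9 CPM) overlapped those of peribiliary fibroblasts (0.26 to 80.1 CPM).

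The level of *Igfbp5* in the fibroblast cluster #m9 came mostly from 6 cells. Cells named Mesothelial, from the lining of the liver surface, were at 2836 CPM, whereas the 113 *Wt1*+ fibroblasts of the same cluster were at 15 CPM. The lower level of fibroblasts against other mesenchymal cells was -1.43 ± 0.36 on the log2 scale (edgeR adjusted p = 0.0402) and -2.15 without the cells named Mesothelial, Cont and PBV (edgeR adjusted p = 0.00357). It was not called with the pool as a block (-1.35, edgeR adjusted p = 0.0881) or with sums per plate (-0.74, edgeR adjusted p = 0.943).

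*Igfbp6* was highest in Mesothelial cells and *Wt1*+ fibroblasts. Plate ranges of cHSC (151 to 1933 CPM) and peribiliary fibroblasts (150 to 676 CPM) overlapped, and their median cells were at 47.8 and 153 CPM. *Wt1*+ fibroblasts were at 1225 and 1532 CPM, cHSC at 609 and 220 CPM, peribiliary fibroblasts at 511 and 150 CPM and Mesothelial cells at 2566 CPM over both pools, while portal fibroblasts were at 166 CPM, HSC at 7.1 CPM and artSMC, in the mural cluster #m2, at 12.1 CPM. Mural sums lay between 3.97 and 34.9 CPM and all other mesenchymal sums between 52.1 and 1561 CPM, without overlap (-3.98 ± 0.41, edgeR adjusted p = 1.02e-05). The stellate cluster #m3 joins cHSC with HSC in these sums, and HSC alone (7.1 CPM) lay within the mural range. Fibroblasts averaged 470 and 629 CPM against 79.4 and 57.5 CPM in other mesenchymal clusters (3.22 ± 0.37, edgeR adjusted p = 3.65e-05; with sums per plate 3.11, edgeR adjusted p = 0.0532, not called). Among stellate cells, cHSC stood at 609 and 220 CPM against 5.97 CPM in the male sum of HSC. This difference of 6.10 ± 1.37 was not called (edgeR adjusted p = 0.201), in a comparison with a single HSC sum where 5 of 21329 genes, 0.0234%, were called and no IGF gene was, against 4 at an unadjusted p under 0.05 and 1 by DESeq2. In that 1, *Igfbp6*, the DESeq2 log2 fold change was 6.07 (adjusted p = 0.000162). By edgeR *Igfbp6* was called with sums of at least 3 cells (4.82, adjusted p = 0.0364), with sums per plate (6.31, adjusted p = 0.00532) and without the filter on low counts (6.02, adjusted p = 0.00599).

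*Igfbp4* and *Igfbp7* were found throughout the mesenchymal class and differed between hepatocytes and cholangiocytes. *Igfbp4* stood between 1118 CPM (HSC) and 3941 CPM (SLC) in the named mesenchymal cells other than Mesothelial, and its differences within the class were past the adjusted p but under the fold threshold for fibroblasts (0.68 ± 0.11, edgeR adjusted p = 0.00107) and mural cells (-0.49 ± 0.11, edgeR adjusted p = 0.0140). Hepatocytes were at 921 CPM and cholangiocytes at 102 CPM, and the cholangiocyte sums (101 and 107 CPM) lay below all hepatocyte sums (784 to 1628 CPM; -4.02 ± 0.66, edgeR adjusted p = 5.06e-05). *Igfbp7* was reversed between these cells, with 603 and 226 CPM in cholangiocytes and 21.4 to 132 CPM in hepatocyte clusters (2.18 ± 0.61, edgeR adjusted p = 0.00672; with sums per plate 3.30, edgeR adjusted p = 0.0503, not called). In the endothelium *Igfbp7* was at 2611 CPM in sinusoids and lower in LEC (917 and 540 CPM against 1425 to 3379 and 1097 to 1639 CPM in the other clusters; -1.21 ± 0.34, edgeR adjusted p = 0.0416). This call did not hold with DESeq2 (-0.74, adjusted p = 0.259), with sums per plate (-1.62, edgeR adjusted p = 0.499) or without the cells named Mesothelial, Cont and PBV (-1.19, edgeR adjusted p = 0.0545).

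The mixture of binding proteins differed between cell types. To compare genes with one another, CPM were divided by the merged length of all annotated exons of a gene in kb, which can exceed that of a single transcript, and expressed as percent of the summed level of the 7 binding proteins. *Igfbp7* made up 79.8% in endothelial and 55.2% in mesenchymal cells, 82.9% in sinusoidal endothelium and 94.4% in cholangiocytes. Hepatocytes were led by *Igfbp4* with 60.7%. In *Wt1*+ fibroblasts *Igfbp7* (37.8%) and *Igfbp6* (36.9%) were nearly even, and in Mesothelial cells *Igfbp6* led with 59.1%.

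**Figure D4:**
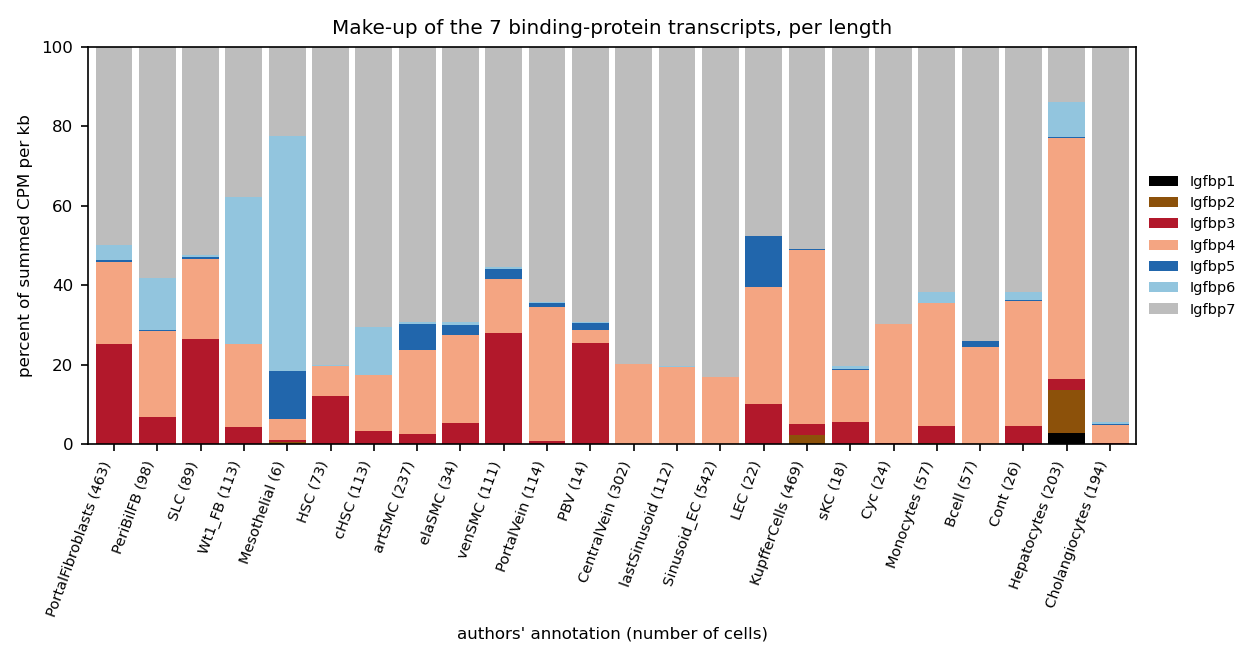
Percent of the summed CPM per kb of the 7 binding proteins by annotation name, as stacked bars that reach 100 percent. *Igfbp7* takes the largest share in most names, *Igfbp4* in hepatocytes (60.7%) and *Igfbp6* in Mesothelial cells (59.1%).

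Single cells often carried several members. At 20 counts or more, the median number of the 10 genes per cell was 4 in portal, peribiliary and *Wt1*+ fibroblasts, SLC, venSMC and elaSMC, 3 in HSC, cHSC and artSMC, 2 in sinusoidal, portal and central vein endothelium and in hepatocytes, 1 in Kupffer cells and cholangiocytes and 0 in B cells. Of the 171 portal fibroblasts with at least 20 counts of *Igf1*, 167 also had at least 20 counts of *Igfbp3*, which 435 of all 463 portal fibroblasts had.

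Counted by comparison, mesenchymal subtypes had 3 genes called for fibroblasts (*Igf1* and *Igfbp6* higher, *Igfbp5* lower; 2.77% of all genes), 1 for stellate cells (*Igfbp5* lower; 2.47%) and 3 for mural cells (*Igfbp5* higher, *Igf1* and *Igfbp6* lower; 3.24%). Mural cells were lower in *Igf1* by 2.37 on the log2 scale (-2.37 ± 0.32, edgeR adjusted p = 0.000191). For peribiliary against other fibroblasts edgeR called 0 of 10, with 2 at an unadjusted p under 0.05 and 1 called by DESeq2, against 0.0626% of all genes. Endothelial subtypes had 3 of 9 genes called for the portal vein cluster (*Igfbp2*, *Igfbp3* and *Igfbp5* higher; 1.93%), 3 for sinusoidal clusters (#e3, #e5, #e6, #e7 and #e8) against vein and lymphatic clusters (*Igf2*, *Igfbp3* and *Igfbp5* lower; 1.92%) and 5 for LEC (*Igf1*, *Igf2*, *Igfbp3* and *Igfbp5* higher, *Igfbp7* lower; 6.8%). For the central vein cluster edgeR called 0 of 9, with 3 at an unadjusted p under 0.05 and 1 called by DESeq2, against 1.41% of all genes. Cholangiocytes against hepatocytes had 7 of 9 called, against 37.3% of all genes.

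The sinusoidal side holds cluster #e7, whose 150 cells carry the annotation name CentralVein. With #e7 counted as central vein, a choice made after seeing the data, *Igf2* was no longer called in sinusoids (-3.18, edgeR adjusted p = 0.99991), and *Igfbp3* and *Igfbp5* still were.

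The portal vein, sinusoidal and lymphatic comparisons share their endothelial sums, so the calls are not separate evidence. For *Igfbp3*, male sinusoidal sums were between 0.593 and 10.6 CPM and female ones between 0 and 1.37 CPM (-5.57 ± 0.78, edgeR adjusted p = 0.00116; with sums per plate -4.41, edgeR adjusted p = 0.0683, not called), and *Igfbp5* averaged 0.468 and 10.8 CPM against 157 and 399 CPM (-4.97 ± 0.78, edgeR adjusted p = 0.00264). In the portal vein cluster, where 25.8% of cells had a count and plates ranged from 0 to 503 CPM (median 3.01), *Igfbp5* was at 98.1 and 95.5 CPM (4.89 ± 0.80, edgeR adjusted p = 0.00353; with sums per plate 4.50, edgeR adjusted p = 0.0722, not called). In LEC, *Igfbp5* was at 371 and 1099.6 CPM, above all other endothelial sums, which reached 98.1 CPM (8.24 ± 0.81, edgeR adjusted p = 1.35e-05). *Igfbp3* in LEC was at 845 and 143 CPM, of which the female value was below the 285 CPM of the female portal vein cluster (7.21 ± 0.80, edgeR adjusted p = 4.38e-05). *Igf1* in LEC was at 119 and 10.3 CPM (4.04 ± 0.94, edgeR adjusted p = 0.0145), and the female value lay within the 0.313 to 12.1 CPM of other female sums. The median LEC had no *Igf1* count, and the call did not hold with thinned cells (3.24, edgeR adjusted p = 0.0506) or with sums per plate (1.65, edgeR adjusted p = 0.947). *Igf2* was called in LEC (6.42 ± 1.53, edgeR adjusted p = 0.0182) and in sinusoidal clusters (-6.50 ± 1.58, edgeR adjusted p = 0.0464). Neither call held with the pool as a block (5.67 and -6.21, edgeR adjusted p = 0.168 and 0.0894). In LEC the 9 male cells had 0 CPM whereas the 13 female cells had 40.5 CPM. *H19*, the imprinted neighbour of *Igf2*, was at 33.7 and 49.7 CPM in LEC against 0.00201 and 0.0327 CPM in other endothelium (11.84 ± 1.30, edgeR adjusted p = 0.000344).

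**Figure D5:**
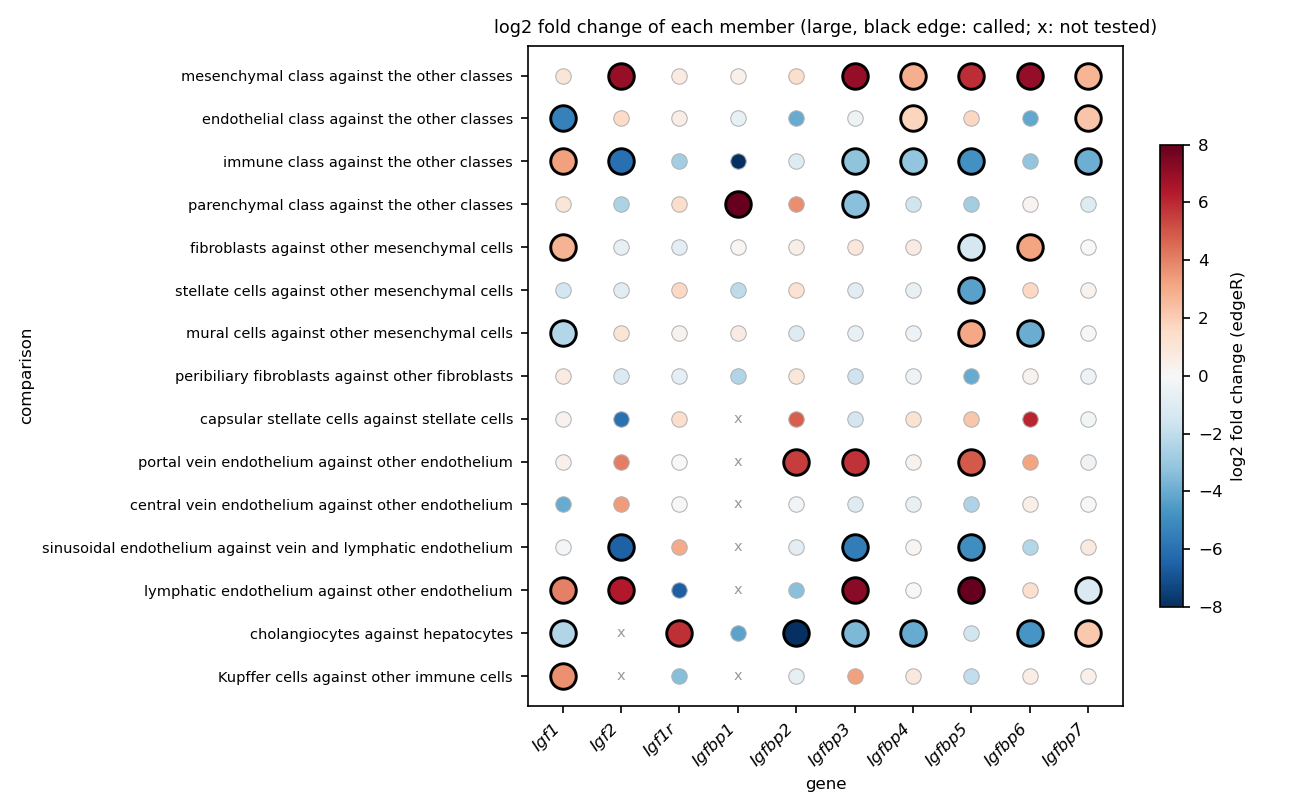
Fitted log2 fold changes of the 10 genes (columns) in the 15 comparisons (rows), on a colour scale from -8 to 8, with large black-edged points for called genes and crosses for genes that were not tested. The mesenchymal row has 6 called genes, and *Igfbp3* and *Igfbp5* change sign between the sinusoidal and the portal vein and lymphatic rows.

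Other genes were counted from a list of 22, called pathway genes here, and from a list of 10 that encode IGFBP proteases or proteins with an IGFBP-type domain. Besides genes of IGF and insulin signalling, the list of 22 holds *H19*, *Igf2bp1*, *Igf2bp2* and *Igfbpl1*. In the mesenchymal class 8 of 21 tested pathway genes were higher and 1 lower, where 9.47% of all genes were higher and 2.33% lower, with a median log2 fold change of 2.19 over the list and 0.02 over all genes. *Pappa*, the protease that releases IGF from IGFBP4, was at 68.7 and 88.6 CPM against means of 0.231 and 0.587 CPM (8.12 ± 0.60, edgeR adjusted p = 0.000299), and its inhibitor *Stc2* at 128 and 128 CPM (6.54 ± 1.05, edgeR adjusted p = 0.00582). *Insrr*, an insulin receptor relative, was at 6.31 and 2.79 CPM (7.71 ± 1.18, edgeR adjusted p = 0.00456), while *Igfals* was lower (-6.07 ± 1.42, edgeR adjusted p = 0.0273). Of the domain list, 7 of 10 were higher and 1 lower (median 3.8), among them the serine proteases *Htra1* (766 and 894 CPM, 5.62 ± 0.54, edgeR adjusted p = 0.000699) and *Htra3* (8.11 ± 1.18, edgeR adjusted p = 0.00376).

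In the remaining classes fewer genes of the lists were called. Endothelial cells had 2 of 21 pathway genes higher and 1 lower, near the 5.33% and 2.96% of all genes, with *Insr* at 118 and 126 CPM (1.55 ± 0.36, edgeR adjusted p = 0.0363) and the PAPP-A inhibitor *Stc1* 6.22 ± 0.74 higher (edgeR adjusted p = 0.00292). Immune cells had 1 higher (*Igf2bp2*) and 5 lower, against 7.92% and 5.25% of all genes, with *Grb10* at 0.235 and 2.26 CPM (-5.79 ± 1.08, edgeR adjusted p = 0.0108). Parenchymal cells had 2 higher and 2 lower, against 8.37% and 4.05% of all genes, with *Igfals* at 48.3 and 28.9 CPM (8.69 ± 0.98, edgeR adjusted p = 0.00133). The medians of the pathway list were -0.46, -1.73 and 0.35 in endothelial, immune and parenchymal cells, against 0.04, 0.09 and -0.27 over all genes. Of the domain list, endothelial cells had 2 higher and 0 lower, immune cells 0 and 4, and parenchymal cells 1 and 2. *Ghr* was at 236 and 0.156 CPM in the parenchymal pools and at 98.1 and 86.2 CPM in the mesenchymal ones and was not called for any class. *Igf2r* was not called for any class either, with its highest pool in mesenchymal cells (99.3 CPM, female).

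Within the mesenchymal class, fibroblasts had 3 of 20 pathway genes higher (*Insrr*, *Pappa* and *Stc2*) and 1 lower (*Grb14*), where 2.04% of all genes were higher and 0.724% lower. *Pappa* averaged 84.5 and 87.9 CPM in fibroblasts against 37.3 and 60.5 CPM (2.18 ± 0.42, edgeR adjusted p = 0.00538), and *Htra3* 1953 and 1285 CPM against 385 and 351 CPM (2.81 ± 0.27, edgeR adjusted p = 4.24e-06). Mural cells had 1 of 20 higher and 2 lower (1.17% and 2.07% of all genes), the portal vein cluster 1 of 15 higher and 0 lower (1.85% and 0.0819%), sinusoidal clusters 0 higher and 1 lower (0.759% and 1.16%), and stellate cells, peribiliary fibroblasts, cHSC, the central vein cluster and Kupffer cells 0 in either direction. In LEC 4 of 15 pathway genes were higher (*Pappa*, *Stc1*, *Stc2* and *H19*) and 0 lower (4.92% and 1.88% of all genes). *Pappa* was at 34.9 and 25.4 CPM there against 0.106 and 0.613 CPM (9.13 ± 1.22, edgeR adjusted p = 0.000632). Cholangiocytes had 5 of 14 higher and 2 lower than hepatocytes, close to the 28.6% and 8.67% of all genes. Over these subtype comparisons, the 7 to 9 tested genes of the domain list were called higher and lower in numbers of 1 and 1 for fibroblasts, 0 and 1 for stellate cells, 1 and 2 for mural cells, 0 and 1 for peribiliary fibroblasts, 1 and 0 for the portal vein, 1 and 0 for the central vein, 1 and 2 for sinusoids, 2 and 1 for LEC and 3 and 0 for cholangiocytes. The shares of all genes called higher and lower, where not given above, were 2.19% and 0.282% for stellate cells, 0.0224% and 0.0402% for peribiliary fibroblasts and 1.32% and 0.0873% for the central vein.

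Genes with the most similar pattern were sought over 50 sums of clusters and pools by Pearson's r of log2(CPM + 1) among 17858 genes. These sums share pools, plates and cell classes, so r describes likeness across cell types in these libraries. The gene most like *Igfbp3* was *Mustn1* (r = 0.92), followed by *Dcn* and *Vegfd*, and for *Igfbp7* it was *Bgn* (0.93), followed by *Col4a1* and *Timp3*. *Igfbp4* was most like *Mxra8* (0.89), *Igfbp6* like *Dpep1* (0.89) and *Pdgfra* (0.89), and *Igfbp5* like *Gucy1b1* (0.87) and *Gucy1a1* (0.84). *Igf1* was most like *C4b* (0.80), *Igf2* like *Mir7010* (0.79) and *Igf1r* like *Myo1d* (0.74). *Igfbp2* was most like *Ly6g2* (0.86) and *Igfbp1* like *Obp2a* (0.96), which for *Igfbp1* rests on the cells of a single hepatocyte cluster. Among the 10 genes themselves, r was highest for *Igfbp4* with *Igfbp7* (0.77) and *Igfbp3* with *Igfbp5* (0.76).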

How the data were processed

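The authors sequenced single sorted cells by Smart-seq2 and deposited raw counts per gene and cell, without normalization, after they had removed low-quality cells (by counts, genes, and mitochondrial and ERCC shares) and cells that looked contaminated. The submitters' processing notes name bcl2fastq, Bowtie, Bowtie2, featureCounts, Subread and Seurat with builds GRCm38 and mm10. Doublets were left to the authors' filters.

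The 92 ERCC rows were left out. Counts were summed per class or multilevel cluster and pool (community clusters for cHSC), at least 5 cells a sum. All genes passing filterByExpr were fitted with edgeR 4.0.16 (R 4.3.3, TMM, quasi-likelihood) and p values adjusted by Benjamini-Hochberg. The fits were checked on simulated data at a fixed dispersion of 0.05, and at the spread of these data only the sign of the changes was checked. The alternatives were DESeq2 1.42.0, no filter on low counts, cells thinned to 50000 counts, sums per plate, sums of at least 3 cells, the pool as a block, the fits without each pool, and the 2 added after seeing the data. Values per cell and intervals used Python 3.11.15, numpy 2.4.6, pandas 2.3.3 and scipy 1.17.1. Cluster #e7 was grouped with sinusoidal clusters, as in the study's supplementary marker comparison, although the study's text and the deposited annotation assign its 150 cells to the central vein.

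The genes, gene lists, comparisons and alternatives were chosen with earlier results of these data known. The named genes were all 10 members, counts over the 2 lists with values for *Igf2r*, *Insr*, *Ghr*, *Igfals*, *Htra1*, *Pappa* and *Grb10* where they are described and for up to 3 others per comparison with the largest changes, and the 3 most similar genes. Sums of a pool come from the same deposited sample, which pairs them. Same-pool deviations correlated at a median of 0.161 over 28 pairs of mesenchymal clusters, 0.0446 over 28 pairs of endothelial clusters and -0.0294 over 3 pairs of immune clusters.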

Additional observations from a re-analysis of the deposited data

Results flagged for a closer look

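In 2 of the results past the adjusted p (under the fold threshold for *Igfbp3*) the pools pointed in opposite directions, and in both the difference between the pools was not tested. For *Igfbp3* in fibroblasts against other mesenchymal clusters, the log2 fold change fitted in the male pool alone was 1.15 and in the female pool alone -0.17. The female pool lacked sums for 2 of the 5 fibroblast clusters, #m8 and #m10, which in the male pool were at 3675 and 3686 CPM. For *Igf2* in LEC against other endothelial clusters, the female pool alone gave 9.48 and the male pool alone -4.59. The male LEC had no *Igf2* count in 9 cells, other male endothelial sums were at 6.19 CPM or less, and fitted changes next to a count of 0 depend on the prior count of the fit.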

How the results depend on the processing

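Over 69 fitted values of the 10 genes (43 of them called), DESeq2 gained 14 calls and lacked those of *Igfbp7* in LEC and *Igfbp2* in the portal vein. No filter on low counts gained 13, thinned cells gained 4 and lost 1, sums per plate gained 12 and lost 11, sums of at least 3 cells gained 1, the pool as a block gained 1 and lost 4, and leaving out the cells named Mesothelial, Cont and PBV lost 4, with the direction kept. The 6 calls in the mesenchymal class and that of *Igf1* in Kupffer cells held under every setting with a test. The cause of the changes below was not tested. In the immune class 9 of the 10 genes were called with DESeq2 and without a filter on low counts (both adding *Igf1r*, *Igfbp1* and *Igfbp6*) and 7 with sums per plate (adding *Igfbp6*), against 6. In the endothelial class the number called was 5 with DESeq2 and 6 without a filter on low counts, against 3, and in the parenchymal class 5, 5 and, with thinned cells, 4, against 2. For stellate cells it was 2 without the filter, with thinned cells and with sums per plate, against 1. For peribiliary fibroblasts, with 0, it was 1 with DESeq2 and with thinned cells (*Igfbp5*) and 2 without the filter (*Igfbp5* and *Igfbp3*). For cHSC, with 0, it was 1 with DESeq2, without the filter and with sums of at least 3 cells, and 4 with sums per plate (*Igf2*, *Igfbp3*, *Igfbp4* and *Igfbp6*). For the central vein, with 0, it was 1 with DESeq2. With sums per plate it fell from 5 to 3 in LEC (*Igf1* and *Igfbp7* lost) and from 7 to 3 in cholangiocytes (*Igf1r*, *Igfbp3*, *Igfbp6* and *Igfbp7* lost, with log2 fold changes of 5.33, -2.45, -2.34 and 3.30). Sums per plate added *Igfbp3* in fibroblasts (1.35, adjusted p = 0.000324) and in mural cells (-1.06, adjusted p = 0.0174), *Igfbp6* in endothelial cells, *Igf2* and *Igfbp2* in parenchymal cells and *Igfbp7* in sinusoids. They lost *Igfbp3* in parenchymal cells and in sinusoids, *Igfbp5* and *Igfbp6* in fibroblasts and *Igfbp5* in the portal vein, with the values given beside those results, thinned cells lost *Igf1* in LEC, and DESeq2 lost *Igfbp7* in LEC and gave no call for *Igfbp2* in the portal vein. The pool as a replicate block changed 5 calls, those given beside their results: *Igf2* in immune cells (-6.05, adjusted p = 0.0521), in sinusoids (-6.21, adjusted p = 0.0894) and in LEC (5.67, adjusted p = 0.168), *Igfbp5* in fibroblasts (-1.35, adjusted p = 0.0881) and *Igfbp4* in parenchymal cells (-1.71, adjusted p = 0.0445). It could not be fitted for cholangiocytes, which lack a female hepatocyte sum. Leaving out a pool left no residual spread and so gave values without a test. Without the male pool 20 values moved by more than the spread between pools that their standard error gives, and 3 changed sign, and without the female pool 15 and 1. *Igfbp2* in the parenchymal class had -1.07 without replicate 1 (the male pool) and 6.01 without replicate 2 (the female pool), *Igfbp3* in fibroblasts -0.17 and 1.15, *Igfbp3* in mural cells 0.30 and -0.90, and *Igf2* in LEC 9.48 and -4.59. Counting #e7 as central vein, a choice made after seeing the data, lost *Igf2* in sinusoids (-3.18, adjusted p = 0.99991). Leaving out the cells named Mesothelial, Cont and PBV also lost *Igfbp5* in immune cells (-5.26, adjusted p = 0.0748) and *Igfbp7* in LEC (-1.19, adjusted p = 0.0545).

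The number of all genes called moved more than 1.5-fold in several fits. With DESeq2 it was 4321 for the mesenchymal class (2838 by edgeR), 4534 for endothelial (1992), 5669 for immune (3167) and 5601 for parenchymal cells (2987), 1484 in fibroblasts (619), 1818 in mural cells (725), 377 in peribiliary fibroblasts (14), 142 in cHSC (5), 1479 in sinusoids (352), 3096 in LEC (1245) and 974 in Kupffer cells (472). Without the filter it was 4761, 4210, 5507 and 5066 in the 4 classes, 999 in fibroblasts, 1486 in stellate cells (552), 1102 in mural cells, 218 in peribiliary fibroblasts, 17 in cHSC, 1102 in the portal vein (354), 998 in the central vein (258), 699 in sinusoids and 2002 in LEC. Sums per plate gave 3492 in endothelial cells, 164 in fibroblasts, 1375 in stellate cells, 197 in mural cells, 9 in peribiliary fibroblasts, 55 in cHSC, 674 in the portal vein, 530 in the central vein, 228 in sinusoids, 574 in LEC, 1228 in cholangiocytes (6225) and 1181 in Kupffer cells. The block gave 279 in stellate cells, 211 in the portal vein, 796 in LEC and 169 in Kupffer cells. Thinned cells gave 36 in peribiliary fibroblasts and 8 in cHSC, and sums of at least 3 cells 10 in cHSC.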

Other observations

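*Igfbp7* had a difference between pools that ran through most cell types. Among the 18 annotation names with at least 5 cells in both pools and at least 10 CPM in one of them, the male pool was higher in 17, and PBV was the exception with 590 and 2192 CPM in male and female cells. By plate, *Igfbp7* ranged from 1837 to 4503 CPM over 7 male plates of mesenchymal cells, against 1396 CPM on the only female plate. Endothelial cells ranged from 976 to 3443 CPM over 11 male plates (median 2047) and from 1256 to 1569 CPM over 4 female plates, so the plate ranges overlapped there. The male pool was higher in 10 of 13 names for *Igf1*, 5 of 7 for *Igf2*, 7 of 12 for *Igfbp3*, 8 of 18 for *Igfbp4*, 6 of 14 for *Igf1r*, 4 of 12 for *Igfbp5*, 4 of 10 for *Igfbp6* and 0 of 2 for *Igfbp2*. Sex and plate cannot be told apart in these values, and none was tested.

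Of 38 cases in which a gene passed the adjusted p in a comparison and both pools gave a value, 36 had the same sign in both. These cases were picked by a test on the same pools, which favours equal signs. The count therefore does not show how often the pools had the same direction in general.

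Among hepatocyte clusters of the male pool, levels of *Igf1* and of its partner *Igfals* were lowest in #p5. Cluster #p5 was at 280 CPM for *Igf1* and 11.2 CPM for *Igfals*, against 477 and 87.4 CPM in #p4, 454 and 183 CPM in #p3 and 409 and 167 CPM in #p1. *Igfals* was counted in 4 of 57 cells of #p5, 18 of 59 of #p4, 8 of 23 of #p3 and 6 of 62 of #p1. Clusters #p3, #p4 and #p5 each had 1 plate with at least 5 cells, and the 4 such plates of #p1 ranged from 220 to 425 CPM for *Igf1*, around the level of #p5. These differences were not tested.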
